A study of Mus musculus with 13 samples.

Results

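The genes described here code for the extracellular scaffold of the elastic fibre and for the proteins that tether latent TGF-beta to it. They are elastin (Eln), the fibrillins Fbn1 and Fbn2, the latent TGF-beta binding proteins Ltbp1, Ltbp2, Ltbp3 and Ltbp4, and the fibulins Fbln1, Fbln2 and Fbln5. They were chosen by symbol, 10 of the 32285 genes of the matrices, and each symbol was held by a single gene. Their RNA was followed in mouse mammary fibroblasts.

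Elastic fibres are laid down on a scaffold of microfibrils built from fibrillins. Fibulin-5 and Ltbp4 help to deposit elastin on that scaffold, lysyl oxidases then crosslink it, and Ltbp1, Ltbp3 and Ltbp4 bind the latent complex of TGF-beta and anchor it in the matrix. Ltbp2 binds fibrillin microfibrils but does not carry latent TGF-beta. In the mammary gland these proteins form part of the stroma around the ducts, which is remodelled as the epithelium grows, secretes milk and regresses.

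The study profiled single cells of the mouse mammary stroma by droplet RNA sequencing in 13 libraries of 9 groups. Of these libraries, 5 were lineage-negative CD24-negative stroma of C57BL/6 females, 1 library per stage, from 2 females each: puberty (4 weeks), adult virgin (9 weeks), pregnancy (day 14.5), lactation (day 10) and involution (day 4). The same fraction was sorted from 9-week C57BL/6 females carrying subcutaneous pellets of placebo (2 libraries) or of medroxyprogesterone acetate and estradiol (MPA+E, 2 libraries), with 2 females per library in the study's methods. The other 4 libraries were GFP+ cells of the raGFP-Wnt1 model, on a mixed C57BL/6 and FVB background: hyperplastic glands (2 libraries) and mammary tumours (2 libraries), from a mouse of 45 weeks (number 1) and a mouse of 17 weeks (number 2), each mouse giving both tissues. All 4 carried the MMTV-Wnt1 transgene, in which the MMTV promoter drives Wnt1 mainly in the mammary epithelium, and a nuclear GFP knocked into 1 Pdgfra allele, so that the sort kept cells in which Pdgfra was active. Strain, sort and age thus differed between the Wnt1 libraries and the normal stages, and cannot be told apart there from hyperplasia or tumour.

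Fibroblasts were barcodes with a summed Dcn, Lum and Col1a2 level of at least 50 per 10000 UMIs and no UMI of Epcam, Pecam1, Rgs5, Sox10, Ptprc or Myog, which kept 100523 of 120355 barcodes, 4236 to 11951 per library. Libraries held 56551189 to 112550204 UMIs, with a median of 3990 to 20256 UMIs per fibroblast. A pair of libraries shared 5 to 51 barcodes. All 5 fibroblast markers were present in each library. The pregnancy fibroblasts still held Krt14 at 22.4 CPM (counts-per-million of the library's fibroblast UMIs), and Acta2 at 219 CPM against 2.03 to 45.7 CPM in the other stages. The myofibroblast marker list, 8 genes including Acta2 and Tagln, summed to 3416 and 5217 CPM in the tumours and to at most 441 CPM elsewhere, so the tumour libraries stood apart.

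Levels are given in CPM, and the intervals in the plots are exact 95% Poisson intervals, which cover counting error only. Fold changes are on the log2 scale with their standard error (SE). A gene passed a test at an adjusted p under 0.05 over all genes tested. In these summed profiles fewer cells of a type and less RNA per cell cannot be told apart. P-values measure the spread between these libraries, 2 per group, except in the test of the difference between fibroblast states, where this is described.

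Promoter windows of 250 bases before the RefSeq start (build GRCm38.p6) were found for 8 of the 10 genes, 13 windows in all. Of these, 3 are shown, because the results turn on their genes: Ltbp2 was higher and Ltbp4 lower in tumours, and Fbln1 differed between fibroblast states in its hormone response. Each is printed 5′ to 3′ on the strand of its gene, ending before the first annotated start, and covers chr12:84876533-84876741 (minus strand), chr7:27337693-27337862 (minus strand) and chr15:85205699-85205948 (plus strand).
Ltbp2: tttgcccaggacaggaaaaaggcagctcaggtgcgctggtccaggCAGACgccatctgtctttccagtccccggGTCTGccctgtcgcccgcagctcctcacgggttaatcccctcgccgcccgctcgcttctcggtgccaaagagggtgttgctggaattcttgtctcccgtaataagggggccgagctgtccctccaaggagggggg
Ltbp4: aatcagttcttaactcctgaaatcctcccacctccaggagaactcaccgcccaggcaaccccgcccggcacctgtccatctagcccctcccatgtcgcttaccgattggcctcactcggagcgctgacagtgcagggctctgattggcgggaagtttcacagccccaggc
Fbln1: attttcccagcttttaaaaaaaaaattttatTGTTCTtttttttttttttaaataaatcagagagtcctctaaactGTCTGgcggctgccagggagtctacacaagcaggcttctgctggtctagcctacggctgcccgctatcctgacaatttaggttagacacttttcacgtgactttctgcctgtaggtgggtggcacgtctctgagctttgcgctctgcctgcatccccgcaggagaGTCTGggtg
Capitals mark matches, on either strand, to the SMAD box CAGAC (reverse GTCTG) or to the steroid receptor half-site TGTTCT (reverse AGAACA), and no base fell in more than 1 match. The window of Ltbp2 held 2 SMAD boxes. That of Fbln1 held 2 SMAD boxes and 1 steroid receptor half-site, and that of Ltbp4 held neither. SMAD boxes stood in 42.2% and half-sites in 16.1% of all 32851 windows, so these matches are common, and they describe letters only. The TATA box TATAAA (12.4% of windows) and the AP-1 site TGANTCA (6.75%) had no match in any of the 13 windows.

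**Figure D1:**
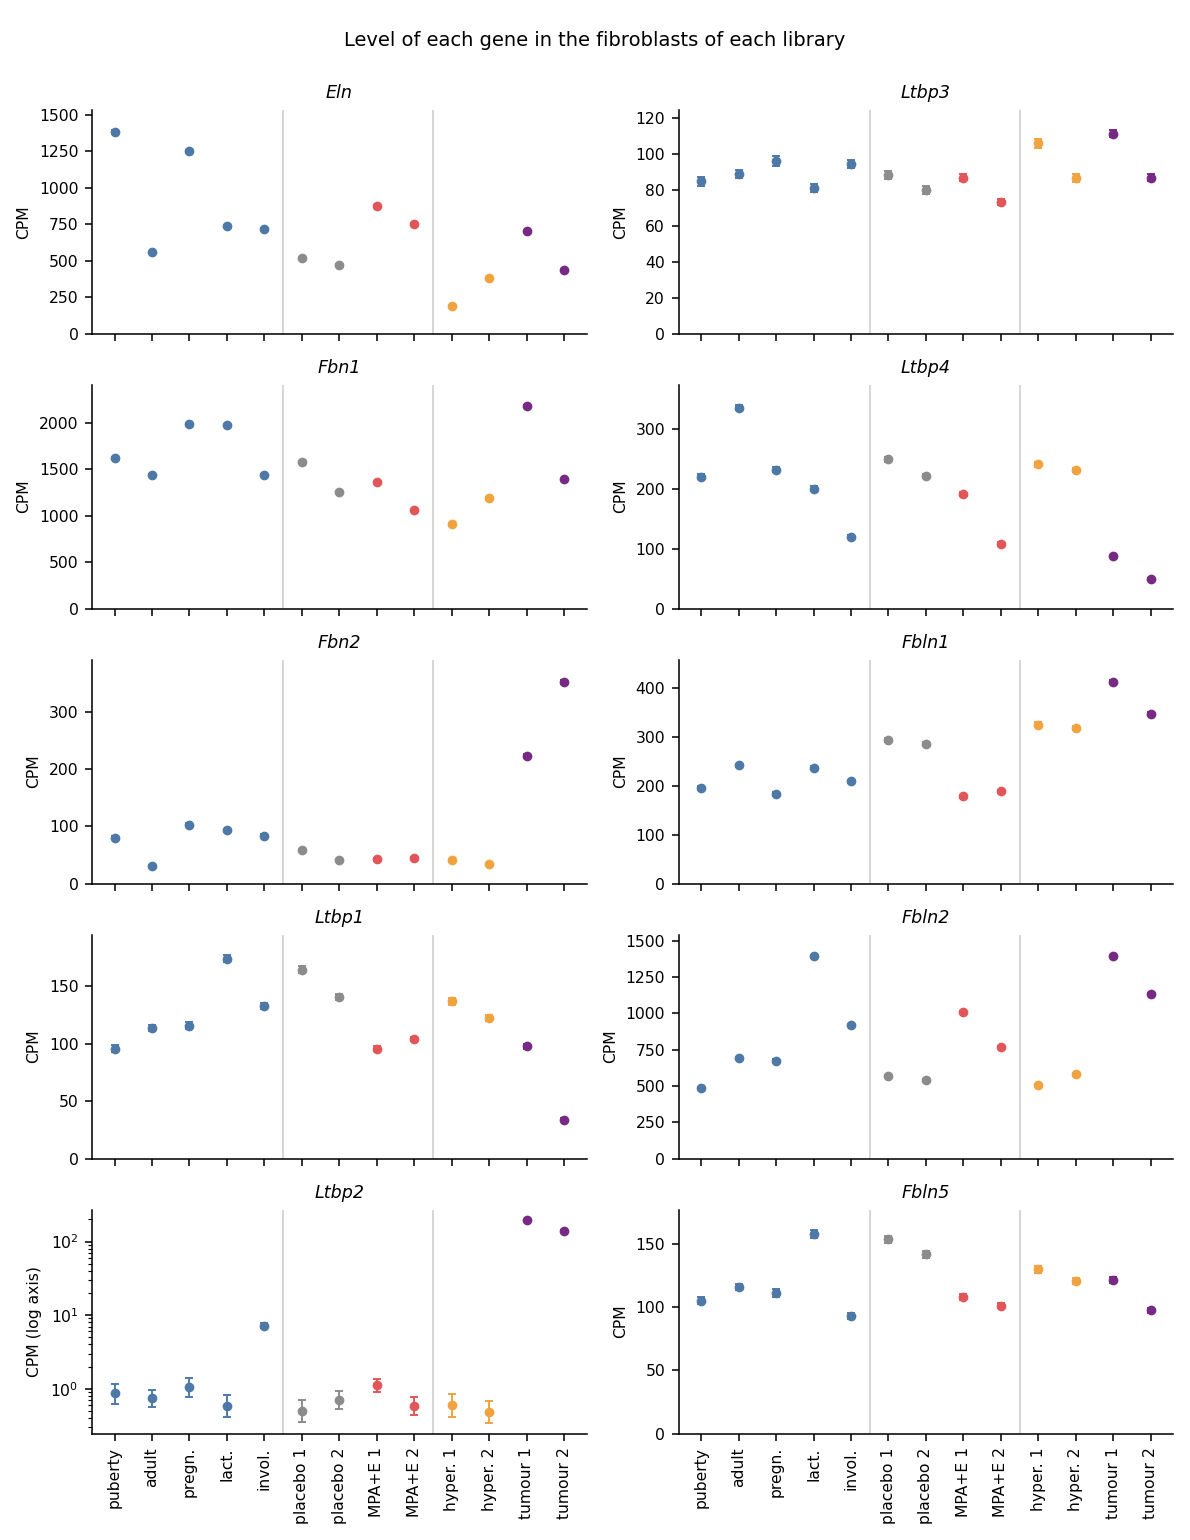
Level of each of the 10 genes in fibroblasts, in CPM on the vertical axis, for each of the 13 libraries (pregn., lact., invol. and hyper. stand for pregnancy, lactation, involution and hyperplasia). Points are library values with exact 95% Poisson intervals, often smaller than the point; the axis of Ltbp2 is logarithmic and the others start at 0. Ltbp2 stands at 195 and 139 CPM in the tumours and at 7.20 CPM or below in the other 11 libraries.

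Across the normal stages the elastin and fibrillin-2 RNAs differed in the same direction at 2 steps, fibulin-2 peaked in lactation, Ltbp4 was lowest in involution, and Ltbp2 was found above its low level only in involution. With 1 library per stage there was no test, and a change of at least 2-fold was counted. Ltbp2 reached the minimum mean of 1 CPM only through involution (2.09 CPM over the 5 stages, 0.812 CPM without it), so it is described apart and left out of the stage counts. Between the highest and the lowest stage 4 of the other 9 genes differed by at least 2-fold (Eln, Fbn2, Ltbp4 and Fbln2), against 23.8% of the 12350 genes with a mean of at least 1 CPM. The median ratio of highest to lowest stage was 1.82 for those 9 genes and 1.59 for all.

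Eln, the elastic core protein (chr5:134702593-134747323, minus strand), stood at 1386 CPM in the puberty library and at 1250 CPM in pregnancy, against 557 CPM in the adult, 739 CPM in lactation and 716 CPM at involution. It was thus high in the stages of ductal and alveolar growth and lowest in the adult virgin. Fbn2, the fibrillin best known from developing tissue (chr18:58008623-58210487, minus strand), was lowest in the adult at 31.6 CPM and stood at 80.4 CPM in puberty, 83.7 at involution, 92.9 during lactation and 103 in pregnancy. From puberty to adult these 2 genes were the only ones of the 9 to differ by 2-fold, Eln to 0.402 and Fbn2 to 0.392 of the puberty level, against 3.38% of all genes. From adult to pregnancy the same 2 genes were 2.24-fold (Eln) and 3.25-fold (Fbn2) higher, against 2.30% of all genes. Both steps rest on the 1 adult library. The 2 placebo libraries, of the same age, strain and sort, had Fbn2 higher than the adult, at 58.3 and 41.5 CPM. Their Eln level was lower than that of the adult, at 516 and 472 CPM. Fbn1, the main microfibril protein (chr2:125300594-125507993, minus strand), varied less, from 1438 CPM in involution and 1445 in the adult to 1628 in puberty, 1982 in lactation and 1992 in pregnancy.

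From pregnancy to lactation 1 of the 9 genes changed by 2-fold, against 10.6% of all genes. This was Fbln2, a fibulin of basement membranes and elastic fibres (chr6:91212455-91272540, plus strand). It ranged from 486 CPM (puberty) through 676 (pregnancy), 694 (adult) and 923 (involution) to 1393 CPM (lactation), which is 2.06-fold higher in lactation than in pregnancy. The ratio was 1.93 under TMM scaling and 1.95 as a mean over cells, so that under either of these 0 of the 9 genes reached 2-fold at this step. Fbln1, the fibulin of microfibrils and basement membranes (chr15:85205949-85286535, plus strand), stayed between 183 CPM (pregnancy) and 242 CPM (adult). Fbln5, which binds elastin and integrins (chr12:101746565-101819055, minus strand), lay at 105, 116, 111, 158 and 92.9 CPM from puberty to involution, with its highest value in lactation.

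From lactation to involution 0 of the 9 genes changed by 2-fold, against 4.15% of all genes. Ltbp2, the gene counted apart (chr12:84783212-84876532, minus strand), stood at 0.862 CPM (puberty, 42 UMIs), 0.745 CPM (adult, 55 UMIs), 1.05 CPM (pregnancy, 50 UMIs) and 0.587 CPM (lactation, 37 UMIs), and at 7.20 CPM in involution (535 UMIs, 95% interval 6.60 to 7.84), a ratio of 12.3 to lactation. The interval covers counting error in 1 library and is no test of the stage. Ltbp4, which is needed for elastic fibre assembly (chr7:27305136-27337692, minus strand), stood at 220, 335, 231, 200 and 120 CPM from puberty to involution, 2.80-fold lower in involution than in the adult. This ratio rests on the 1 adult library, and the placebo libraries of the same age stood lower, at 249 and 220 CPM. Ltbp1, the best studied carrier of latent TGF-beta (chr17:75005568-75392512, plus strand), stood at 95.9, 114, 116, 174 and 133 CPM, highest in lactation. Ltbp3 (chr19:5740904-5758532, plus strand) was the steadiest of the 10, between 80.8 and 95.8 CPM.

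Within the gland these RNAs were spread unevenly over the fibroblast states. Clusters of cells were made separately for the stage, hormone and Wnt1 libraries without the 10 genes and the partner genes listed below, and were named only where markers of a state were raised: progenitor-like (Pi16, Dpp4), preadipocyte-like (Fabp4, Cd36), ECM remodelling-like (Crabp1, Enpp2), lobular-like (Thbs4, Cilp), adipogenesis-regulatory-like (Gdf10, F3), cycling and, in the Wnt1 libraries alone, myofibroblastic-like (Acta2, Lrrc15). Unnamed clusters held 12.4% to 27.0% of the fibroblasts in the stage libraries and at most 4.33% in the others. The 2 tumour libraries were left out of the medians and counts by state over the other 11 libraries, a choice made after their markers were seen, because the lobular-like cluster of the tumours had almost no Bmp5 or Myoc (values are given with the tumours). Leading states and medians were taken over the 5 named states that all 11 libraries held. The progenitor-like state was not made of like clusters throughout. In the hormone libraries it held a cluster with Pgr, Tgm2 and Ccn5 among its top genes, and in the stage libraries such a cluster was left unnamed. Since the same cells made the clusters, levels by state are a description without a test.

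The progenitor-like cells led for Fbn1 and Ltbp1. Fbn1 had a median over the 11 libraries of 2389 CPM in them, against 1623 CPM in lobular-like and 491 CPM in ECM remodelling-like cells, and progenitor-like cells were highest in 9 of 11 libraries. Ltbp1 had a median of 181 CPM in progenitor-like cells, the highest state in 11 of 11 libraries, against 67.1 CPM in adipogenesis-regulatory-like cells. Fbln5 also had its highest median there, 167 CPM, and was highest there in 7 of 11 libraries.

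By level, the lobular-like cells had the highest medians of Fbln2, Eln, Ltbp3 and Ltbp4. Fbln2 had a median of 1748 CPM in them and led in 10 of 11 libraries, while its medians in the other states that all 11 libraries held lay between 343 and 612 CPM. Eln had a median of 1093 CPM there against 314 CPM in adipogenesis-regulatory-like cells, but lobular-like cells led in only 5 of 11 libraries and ECM remodelling-like cells in 4. Ltbp4 was high in both lobular-like (median 575 CPM) and adipogenesis-regulatory-like cells (545 CPM), which were the highest state in 9 and 2 libraries, and low in ECM remodelling-like cells (86.7 CPM, lowest in 10 of 11). For Ltbp3 the medians of the 5 states that all 11 libraries held ran only from 73.9 CPM in progenitor-like to 111 CPM in lobular-like cells.

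Fbn2 and Fbln1 had other leading states. Of the 5 states, ECM remodelling-like cells had the highest Fbn2 level in 11 of 11 libraries, with a median of 173 CPM, against 9.67 CPM in progenitor-like and 6.89 CPM in adipogenesis-regulatory-like cells, the lowest state in 8 of 11. In both hyperplasia libraries the cells named myofibroblastic-like, outside these 5, were higher still at 102 CPM, against 78.9 and 80.1 CPM in ECM remodelling-like cells. With Leiden clusters this order turned, to 46.6 CPM (8 UMIs) and 14.1 CPM (3 UMIs) against 82.3 CPM in the ECM remodelling-like cells of both libraries. Fbln1 was highest in adipogenesis-regulatory-like cells in 10 of 11 libraries, with a median of 512 CPM against 149 CPM in preadipocyte-like cells. The 2 fibrillins thus had their highest levels in different states.

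After thinning each cell to 2000 UMIs, the same leading state was highest in 9 (Fbn1), 11 (Ltbp1), 11 (Fbn2), 10 (Fbln2), 10 (Ltbp4), 10 (Fbln1) and 10 (Fbln5) of the 11 libraries by the share of cells with a UMI, among the same 5 states. With all named states and the tumours included, ECM remodelling-like cells led for Fbn2 in 9 of 13. Eln had its highest median thinned share in progenitor-like cells (61.2%) and not in lobular-like cells (57.2%), each leading in 5 of 11 libraries. The thinned share of cells with an Fbn1 UMI had a median of 97.0% in progenitor-like and 60.5% in ECM remodelling-like cells. In epithelial barcodes (a UMI of Epcam and a fibroblast score under 50, 8 libraries with 20 barcodes or more), taken as cells that should lack most Fbn1, the median thinned share was 10.4%, at a median of 4188 to 12910 UMIs per barcode. Without thinning, the share led in lobular-like cells in only 2 of all 13 libraries for Eln. With Leiden clusters the same states led by level in 11 (Fbn1), 11 (Ltbp1), 9 (Fbn2), 11 (Fbln2), 10 (Ltbp4) and 11 (Fbln5) of the 11 libraries and, for Fbln1, in 9 of the 9 that held adipogenesis-regulatory-like cells. Lobular-like cells led for Fbn2 in the other 2, for Eln in 5 and for Ltbp3 in 7.

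**Figure D2:**
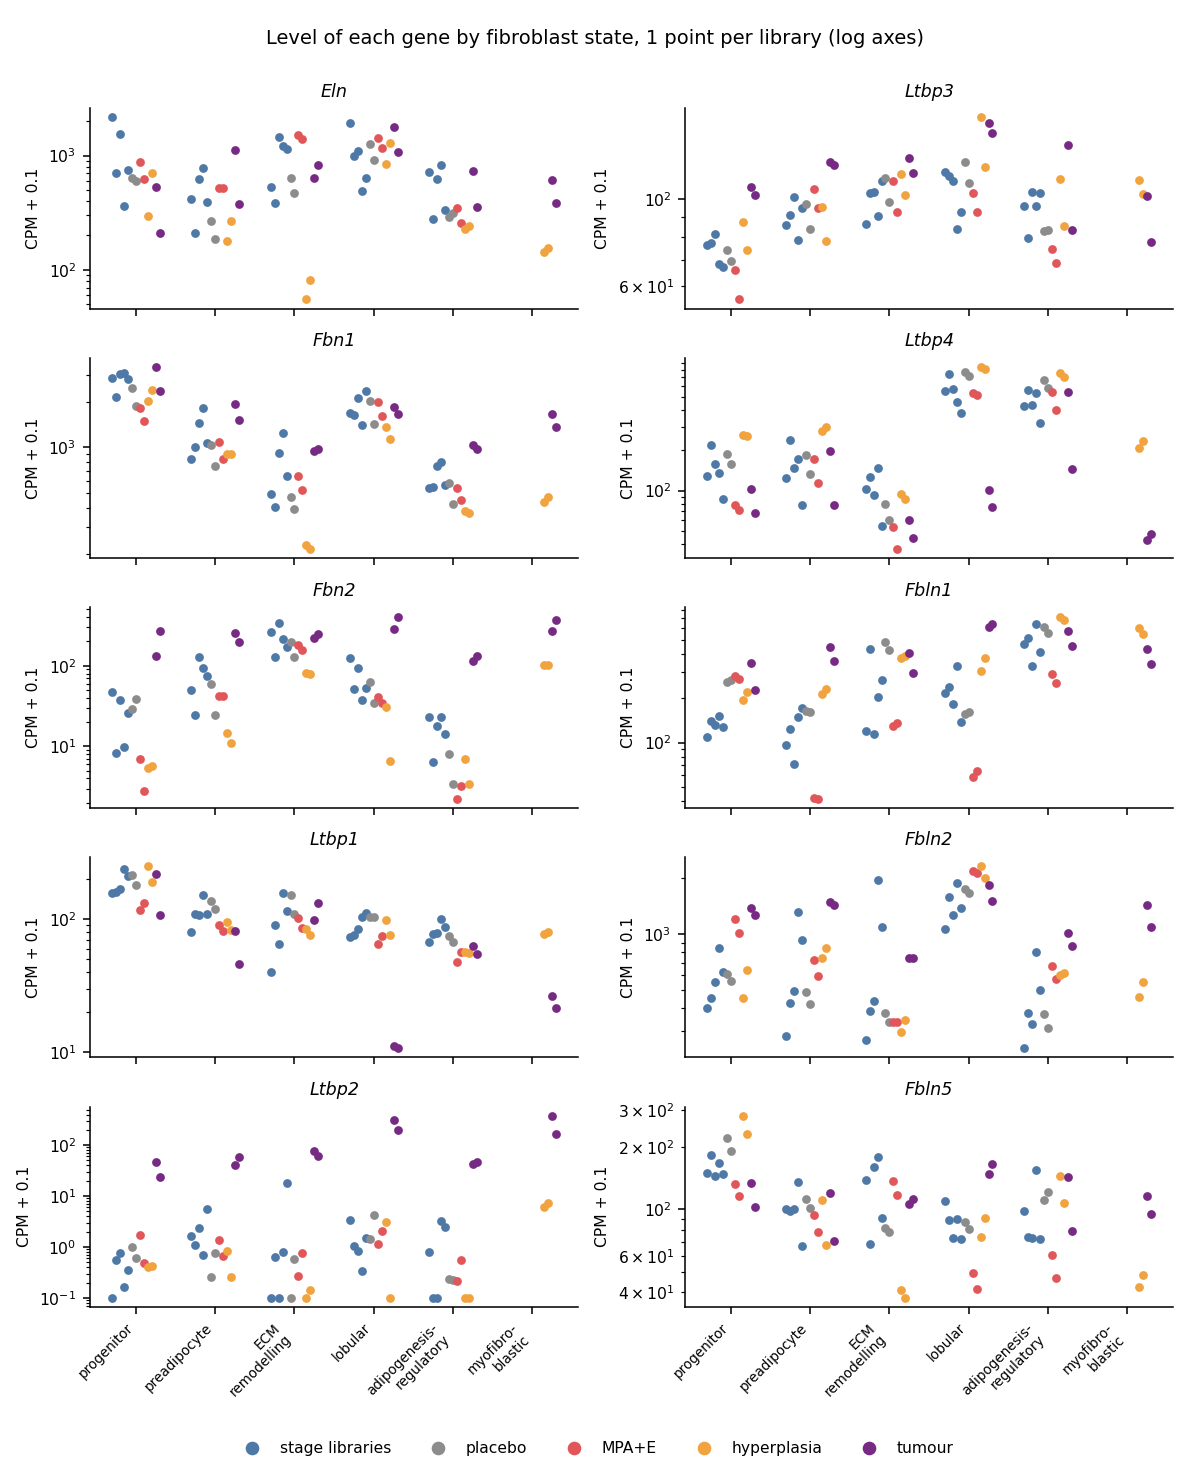
Level of each gene by fibroblast state, 1 point per library, as CPM plus 0.1 on log axes, with states (each short for "-like") on the horizontal axis and colours for the stage, placebo, MPA+E, hyperplasia and tumour libraries. Outside the tumours Fbn1 and Ltbp1 are highest in progenitor-like cells in 9 and 11 of 11 libraries and Fbln2 in lobular-like cells in 10 of 11. The tumour points of the lobular-like state come from a cluster with almost no Bmp5 or Myoc in the tumours, and the hyperplasia points of the myofibroblastic-like state from clusters low in Acta2 there.

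The stage values differed by state as well. Eln in progenitor-like cells stood at 2155, 697, 1550, 361 and 751 CPM from puberty to involution. In ECM remodelling-like cells it stood at 529, 382, 1440, 1202 and 1141 CPM in the same order, so that it stayed high after pregnancy there and not in progenitor-like cells. The puberty value of the ECM remodelling-like state rests on 119 cells. Fbln2 in ECM remodelling-like cells stood at 268, 383, 434, 1957 and 1092 CPM from puberty to involution, highest in lactation, and in lobular-like cells at 1060, 1587, 1264, 1888 and 1390 CPM.

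Ltbp2 in involution lay mostly in ECM remodelling-like cells, by an amount that varied with the clustering. These cells were 26.4% of the involution fibroblasts and held 355 of the 535 Ltbp2 UMIs, or 66.4%, at 17.7 CPM. The preadipocyte-like cells held 22.1% of the UMIs at 5.41 CPM, and the progenitor-like cells held 3 UMIs at 0.254 CPM. With Leiden clusters in place of the integrated ones, no involution cells were named preadipocyte-like, and the ECM remodelling-like cells were 49.2% of the fibroblasts and held 494 of the UMIs, or 92.3%, at 12.6 CPM. Ltbp2 UMIs were seen in 3.43% of all involution fibroblasts and in 0.272% of those of lactation.

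The treatment with progestin and estrogen raised elastin RNA and left the other 9 genes short of the threshold when all fibroblasts were summed and fitted without a block. By edgeR's quasi-likelihood test with Benjamini-Hochberg adjustment, 1 of the 10 genes passed, against 4.33% of the 15642 genes tested. With the library number as a block 6 of the 10 passed, and 2451 of all genes tested. Eln stood at 516 and 472 CPM in the placebo libraries and at 874 and 754 CPM under MPA+E, without overlap. Its log2 fold change was 0.73 (SE 0.11, adjusted p = 0.0358). By state, the Eln levels of the groups were apart in preadipocyte-like and ECM remodelling-like cells. They overlapped in progenitor-like, lobular-like and adipogenesis-regulatory-like cells. Without either library of either group the adjusted p of Eln lay between 0.0525 and 0.240, so the call rests on all 4 libraries.

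The other genes that were furthest apart did not pass. Fbln2 stood at 568 and 541 CPM under placebo and at 1006 and 767 CPM with the hormones, a log2 fold change of 0.68 (SE 0.14, adjusted p = 0.0781). Fbln1 stood at 293 and 285 CPM against 179 and 188 CPM (log2 fold change -0.64, SE 0.11, adjusted p = 0.0519). Both groups were apart for each gene, and the direction was opposite for these 2 fibulins.

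Fbln5 lay at 153 and 142 CPM against 108 and 101 CPM (-0.49, SE 0.09, adjusted p = 0.0567) and Ltbp1 at 164 and 141 CPM against 95.7 and 104 CPM (-0.59, SE 0.12, adjusted p = 0.0680). Ltbp4 lay at 249 and 220 CPM against 191 and 108 CPM, the second MPA+E library being far below the first (-0.65, SE 0.24, adjusted p = 0.255). For Fbn1, Fbn2, Ltbp2 and Ltbp3 the log2 fold changes were -0.22, -0.16, 0.48 and -0.06, with adjusted p from 0.546 to 0.816.

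**Figure D3:**
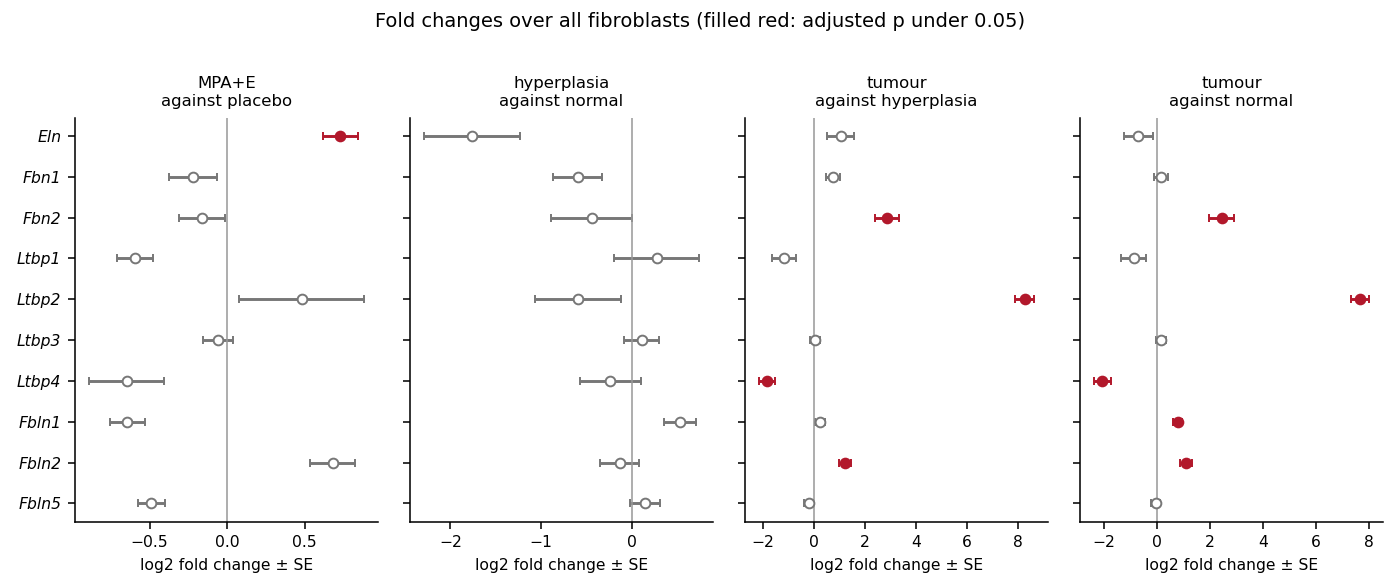
Log2 fold change (horizontal axis) with its SE (bars) of each gene over all fibroblasts, for MPA+E against placebo (edgeR, 2 libraries each) and for the 3 contrasts of normal, hyperplasia and tumour libraries (limma-voom, 2 libraries each). Filled red points passed an adjusted p of 0.05: Eln in the first panel, none in the second, 4 genes for tumour against hyperplasia and 5 for tumour against normal. The horizontal scales differ between panels.

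Within states more of the 10 genes passed, and not the same ones in each. In progenitor-like cells 5 of 10 passed, against 11.6% of 13792 genes tested. Fbn2 went from 28.6 and 38.6 CPM under placebo to 6.78 and 2.73 CPM under MPA+E, a log2 fold change of -2.80 (SE 0.40, adjusted p = 0.0124). Ltbp4 fell from 189 and 158 CPM to 77.8 and 71.3 CPM (-1.17, SE 0.11, adjusted p = 0.00342), and Fbln2 rose from 612 and 559 CPM to 1212 and 1014 CPM (0.98, SE 0.13, adjusted p = 0.0105). In each of these 3 genes the placebo and MPA+E libraries were apart. Fbln5 (-0.68, SE 0.11, adjusted p = 0.0172) and Ltbp1 (-0.61, SE 0.13, adjusted p = 0.0389) also fell. The clusters behind this state were not in the same proportions in the 4 libraries: the cluster led by Ctla2a, Cxcl13 and Krt23 made up 63.7% and 60.7% of the state under placebo and 81.1% and 67.7% under MPA+E, and the one led by Cldn11 and Ecscr 29.7% and 34.1% against 12.7% and 27.5%. With Leiden clusters the progenitor-like cells were 32.8% and 34.1% of the fibroblasts under placebo and 15.7% and 20.8% under MPA+E, and unnamed cells 6.17% and 6.79% against 19.4% and 22.3%. The cluster led by Ctla2a, Cxcl13 and Krt23 also had Pgr, Tgm2 and Ccn5 among its top genes. In the stage libraries a cluster of 6387 cells with Pgr, Tgm2 and Ccn5 among its top genes was left unnamed. A Leiden cluster of the hormone libraries led by Ctla2a, with the same genes, was unnamed too. The part of these shares and names in the values was not tested. With Leiden clusters Fbn2, Ltbp4 and Fbln2 passed in progenitor-like cells, while Fbln5 (adjusted p = 0.260) and Ltbp1 (adjusted p = 0.0913) did not. Without placebo library 1 or without placebo library 2, Ltbp4 alone of these 5 passed, and Ltbp1 was also lost without MPA+E library 1.

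In preadipocyte-like cells 3 of 10 passed, against 3.59% of 12967 genes. Fbln1 fell from 163 and 160 CPM to 41.9 and 41.4 CPM (-1.97, SE 0.11, adjusted p = 0.00303), Eln rose from 267 and 186 CPM to 523 and 522 CPM (1.20, SE 0.17, adjusted p = 0.0252), and Ltbp1 fell (-0.59, SE 0.10, adjusted p = 0.0440). Without either placebo library, Fbln1 alone passed, and Ltbp1 was also lost without either MPA+E library. With equal numbers of cells per state and library it was again the only one of the 3.

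In ECM remodelling-like cells 2 of the 9 genes tested passed, against 1.07% of 12227 genes. Fbln1 fell from 483 and 427 CPM to 130 and 137 CPM (-1.83, SE 0.16, adjusted p = 0.0102), and Eln rose from 634 and 474 CPM to 1516 and 1403 CPM (1.34, SE 0.17, adjusted p = 0.0249). Both calls were lost without placebo library 1. Fbln5 in these cells stood at 81.6 and 78.1 CPM under placebo and at 137 and 117 CPM under MPA+E and did not pass (0.60, SE 0.13, adjusted p = 0.122). In 3 of the other states its fall passed. In preadipocyte-like cells it was lower without overlap, at 112 and 102 CPM under placebo and 94.5 and 78.0 CPM under MPA+E, and did not pass.

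In lobular-like cells 2 of 9 passed, against 2.58% of 10404 genes. Fbln1 fell from 157 and 161 CPM to 58.1 and 64.0 CPM (-1.35, SE 0.16, adjusted p = 0.00672) and Fbln5 from 86.8 and 80.9 CPM to 49.5 and 41.4 CPM (-0.83, SE 0.15, adjusted p = 0.0296). Without either placebo library the Fbln5 call was lost and Fbln1 remained, and DESeq2 called Fbln1 and not Fbln5.

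In adipogenesis-regulatory-like cells 3 of 9 passed, against 3.57% of 11725 genes. Fbln1 fell from 615 and 557 CPM to 291 and 254 CPM (-1.04, SE 0.13, adjusted p = 0.00802), Fbln5 from 111 and 121 CPM to 60.6 and 46.5 CPM (-1.06, SE 0.15, adjusted p = 0.0137), and Fbln2 rose from 370 and 312 CPM to 672 and 573 CPM (0.93, SE 0.13, adjusted p = 0.0148). Without placebo library 2, Fbln1 alone passed, and without placebo library 1 the Fbln2 call was lost.

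Fbln1 thus fell in 4 states, in each with all 4 libraries apart by group, and not in progenitor-like cells, where it stood at 258 and 268 CPM under placebo and at 282 and 272 CPM under MPA+E (0.12, SE 0.11, adjusted p = 0.542). In those 4 states the thinned share of cells with an Fbln1 UMI went from 22.5% and 22.9% to 7.32% and 8.49% (preadipocyte-like), from 52.4% and 49.4% to 19.7% and 21.3% (ECM remodelling-like), from 23.2% and 22.8% to 11.2% and 10.4% (lobular-like) and from 63.5% and 59.8% to 41.2% and 37.2% (adipogenesis-regulatory-like). In epithelial barcodes the median thinned share with an Fbln1 UMI was 3.28%.

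The difference between states was tested directly as the log2 hormone effect in progenitor-like cells minus the mean effect in the other 4 states, with library as a block. Each library entered this fit as a sum for each state, and the sums of a library come from the same animals. The p-values therefore measure the scatter of states within the 4 libraries, pooled over states, and not the spread between libraries alone. Of the 10 genes 6 passed, against 11.8% of 13601 genes. The difference was 1.67 for Fbln1 (SE 0.09, adjusted p = 1.61e-08), -2.56 for Fbn2 (SE 0.42, adjusted p = 0.000751), -0.75 for Ltbp4 (SE 0.13, adjusted p = 0.00101) and 0.54 for Fbln2 (SE 0.09, adjusted p = 0.000666). These 4 passed without any single library as well. The test was not run with Leiden clusters, in which the progenitor-like cells were a smaller share under MPA+E than under placebo. Fbn1 differed by -0.50 (SE 0.07, adjusted p = 0.000142), and passed without any single library but not without the library block (adjusted p = 0.203). Fbln5 differed by -0.28 (SE 0.09, adjusted p = 0.0453) and was lost in each of the 6 other fits: without the library block (adjusted p = 0.306), without the filter on low counts (adjusted p = 0.0987) and without each of the 4 libraries in turn (adjusted p = 0.0596 to 0.446). For Eln, which passed in 2 of the other states and not in progenitor-like cells, the difference of -0.41 (SE 0.15, adjusted p = 0.0980) did not pass.

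**Figure D4:**
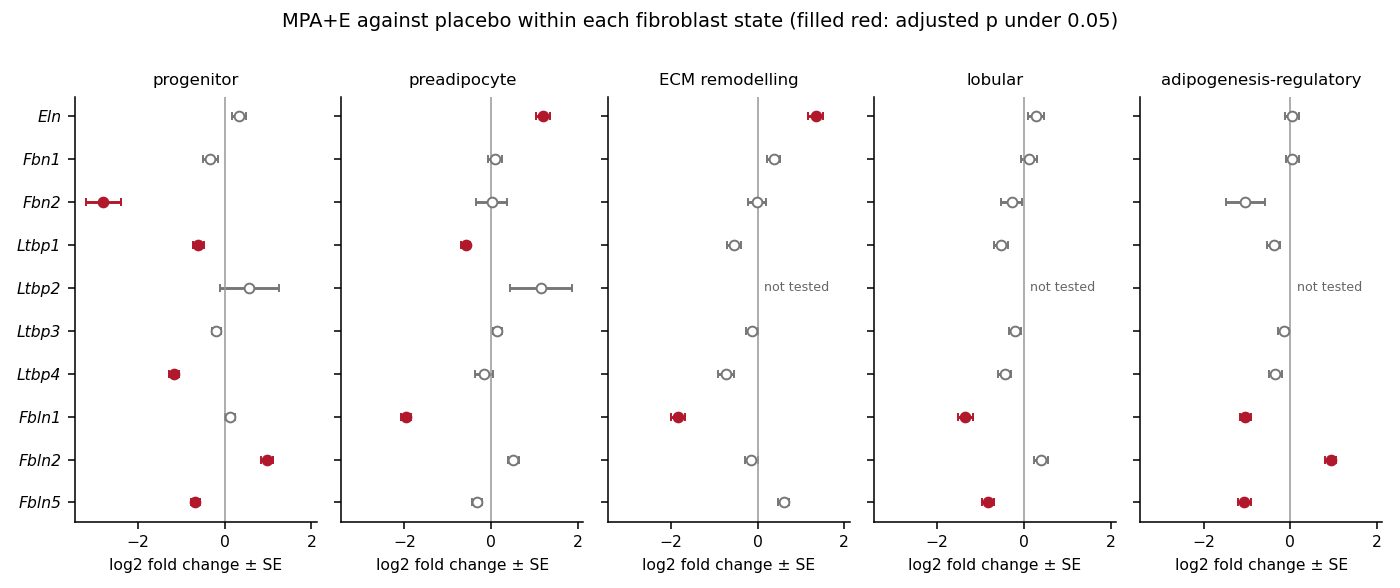
Log2 fold change of MPA+E against placebo (horizontal axis, with SE bars) for each gene within 5 fibroblast states (each short for "-like"), from 2 libraries per group. Filled red points passed an adjusted p of 0.05. Fbln1 lies at -1.97 to -1.04 in 4 states and at 0.12 in progenitor-like cells, and Fbn2 at -2.80 in progenitor-like cells.

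Endothelial markers moved with the treatment: 4 of the 5 were present in each hormone library (Pecam1 was at 0 by the choice of cells), and the list summed to 14.6 CPM in both placebo libraries and to 44.0 and 45.9 CPM under MPA+E. In barcodes with a Pecam1 UMI and a low fibroblast score, Ltbp4 and Fbln5 had median levels of 243 and 103 CPM over 9 libraries. Their part in the hormone results was not tested.

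The Wnt1 comparisons asked how the same scaffold genes stood in hyperplastic glands and in the tumours of the same mice. Normal, hyperplasia and tumour libraries, 2 each with puberty and adult as normal, were fitted together by limma-voom with Benjamini-Hochberg adjustment, so the 3 contrasts share samples. Puberty and adult are different stages and not replicates, and their difference enters the SE and p-value of all 3 contrasts. Between them Eln stood at 1386 and 557 CPM and Fbn2 at 80.4 and 31.6 CPM. Between hyperplasia and normal none of the 10 genes passed, against 14.0% of the 16302 genes tested. At an unadjusted p of 0.05, 2 passed (Eln and Fbln1), against 35.0% of all genes. DESeq2 called the same 2, against 24.6% of all genes, and edgeR called 0, against 15.1%. Eln stood at 189 and 382 CPM in hyperplasia, below both normal libraries (1386 and 557 CPM), with a log2 fold change of -1.77 (SE 0.53, adjusted p = 0.0700). Fbln1 stood at 325 and 317 CPM, above both normal libraries (194 and 242 CPM), with 0.53 (SE 0.18, adjusted p = 0.0859). Without tumour library 1 or without tumour library 2, 3 genes passed, Fbn1 being the third, against 28.3% and 28.4% of all genes. These shares of 2 or 3 in 10 are no higher than or close to those of all genes.

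Tumours differed from hyperplasia in 4 of the 10 genes, against 29.3% of all genes tested: Ltbp2, Fbn2 and Fbln2 were higher and Ltbp4 was lower. With only 10 genes, this count does not set them apart from all genes. Ltbp2 stood at 0.602 CPM (34 UMIs) and 0.483 CPM (35 UMIs) in hyperplasia and at 195 CPM (20034 UMIs) and 139 CPM (12229 UMIs) in tumours. Its log2 fold change was 8.25 (SE 0.38, adjusted p = 0.000955). Fbn2 stood at 41.5 and 35.2 CPM in hyperplasia and at 223 and 351 CPM in tumours (2.87, SE 0.47, adjusted p = 0.0120).

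Fbln2 rose from 506 and 581 CPM to 1394 and 1131 CPM (1.21, SE 0.22, adjusted p = 0.0153). Ltbp4 fell from 240 and 231 CPM to 88.4 and 49.0 CPM (-1.84, SE 0.33, adjusted p = 0.0143). In all 4 genes both tumours lay outside the range of the other libraries in the fit. Without hyperplasia library 1 or without hyperplasia library 2, Ltbp2 alone of these 4 passed.

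The other 6 genes did not pass. Eln stood at 701 and 440 CPM in tumours (1.05, SE 0.53, adjusted p = 0.167) and Fbn1 at 2185 and 1392 CPM against 913 and 1190 CPM in hyperplasia (0.75, SE 0.27, adjusted p = 0.0801). Ltbp1 stood at 97.6 and 34.0 CPM against 137 and 122 CPM (-1.17, SE 0.47, adjusted p = 0.10), the 2 tumours being far apart. For Ltbp3, Fbln1 and Fbln5 the log2 fold changes were 0.03, 0.24 and -0.20.

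Against normal glands 5 genes passed in tumours, against 22.8% of all genes: Ltbp2 (7.66, SE 0.35, adjusted p = 0.000434), Ltbp4 (-2.08, SE 0.33, adjusted p = 0.00896), Fbn2 (2.43, SE 0.47, adjusted p = 0.0165), Fbln2 (1.08, SE 0.22, adjusted p = 0.0194) and Fbln1 (0.77, SE 0.18, adjusted p = 0.0271), the last at 412 and 346 CPM in tumours. Without the puberty library the calls of Fbln1 and Fbln2 were lost, and without the adult library those of Fbln1 and Ltbp4. The call of Fbln1 was also lost without either hyperplasia library.

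The shares of the states differed between these libraries too, and their part in the summed values was not tested. The names of several states did not hold across hyperplasia and tumour. The cells named myofibroblastic-like were 5.58% and 5.10% of the fibroblasts in hyperplasia and 33.2% and 55.9% in tumours, and with Leiden clusters 0.414% and 0.839% against 43.5% and 72.7%. In hyperplasia these cells had Acta2 at 1.06 and 14.2 CPM and Lrrc15 at 22.9 and 45.5 CPM, against 444 and 826 CPM and 509 and 455 CPM in tumours. The cluster named lobular-like had Bmp5 at 4.69 and 1.64 CPM and Myoc at 28.7 and 0 CPM in tumours, against 139 and 107 CPM and 1396 and 1601 CPM in hyperplasia, and Leiden clusters named 33 tumour 1 cells and no tumour 2 cells lobular-like. Tumours and hyperplasia were therefore compared only in progenitor-like and ECM remodelling-like cells, the 2 states with at least 50 cells in each of the 4 libraries under both clusterings. The progenitor marker Pi16 stood at 2430 and 2684 CPM in progenitor-like cells of hyperplasia and at 1971 and 445 CPM in those of tumours, and the ECM remodelling marker Crabp1 in its state at 831 and 940 CPM and at 877 and 1824 CPM.

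In both of these states, and under both clusterings, both tumours lay above both hyperplasias for Fbn2, Ltbp2, Ltbp3 and Fbln2 and below them for Ltbp4. Of these genes Ltbp3 did not pass over all fibroblasts. In ECM remodelling-like cells its groups nearly touched, at 117.0 CPM in the lower tumour and 116.5 CPM in the higher hyperplasia. These orders are a description. Ltbp4 in progenitor-like cells stood at 260 and 257 CPM in hyperplasia and at 102 and 68.4 CPM in tumours, and in ECM remodelling-like cells at 93.5 and 86.7 CPM against 59.9 and 44.0 CPM. Fbn2 in progenitor-like cells stood at 5.25 and 5.64 CPM in hyperplasia and at 132 and 268 CPM in tumours, the last from 203 cells. Eln in ECM remodelling-like cells stood at 55.0 and 81.4 CPM in hyperplasia and at 630 and 832 CPM in tumours, while in progenitor-like cells the groups overlapped.

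Ltbp2 in tumours was high in myofibroblastic-like cells and in the cluster named lobular-like, which had almost no Bmp5 or Myoc in tumours. The myofibroblastic-like cells stood at 377 and 167 CPM with 72.5% and 72.2% of the Ltbp2 UMIs, and with Leiden clusters at 364 and 171 CPM with 93.5% and 91.7%. The cluster named lobular-like stood at 308 and 198 CPM, the highest value of tumour 2, and cycling cells at 103 and 81.6 CPM. Ltbp2 stood at 46.5 and 23.7 CPM in the progenitor-like and at 78.2 and 61.7 CPM in the ECM remodelling-like cells of tumours, against at most 0.327 CPM in those states of hyperplasia. With Leiden clusters the tumour values of these states were 11.4 and 23.1 CPM (progenitor-like) and 34.4 and 35.0 CPM (ECM remodelling-like). The hyperplasia values of the same states were then at most 0.368 CPM. Most hyperplasia UMIs lay elsewhere. The cells named myofibroblastic-like there held 17 of the 34 and 23 of the 35 Ltbp2 UMIs, at 6.00 and 7.26 CPM. Leiden clusters left only 1 and 0 UMIs in cells of that name. They placed 15 and 17 UMIs in 16 and 23 unnamed cells, at 57.8 and 50.3 CPM.

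The low levels of Ltbp2 outside tumours were set beside those of other barcodes of the same libraries. In the 6 non-tumour libraries with at least 20 epithelial barcodes, Ltbp2 stood there at 15.6 to 90.4 CPM, above the 0.483 to 1.13 CPM of their fibroblasts. Where the Ltbp2 UMIs of those fibroblasts came from was not tested. In tumours the order was the reverse, with 44.4 and 8.79 CPM in epithelial barcodes (46 and 242 barcodes) against 195 and 139 CPM in fibroblasts. After thinning, 18.5% and 17.6% of tumour fibroblasts had an Ltbp2 UMI (34.9% and 45.8% unthinned, at medians of 10824 and 20256 UMIs), against 2.17% and 0.418% of the epithelial barcodes (medians of 12339 and 9902 UMIs). The 6 epithelial markers summed to 0.832 and 1.24 CPM in the tumour fibroblasts and to 0.566 and 1.05 CPM in those of hyperplasia.

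**Figure D5:**
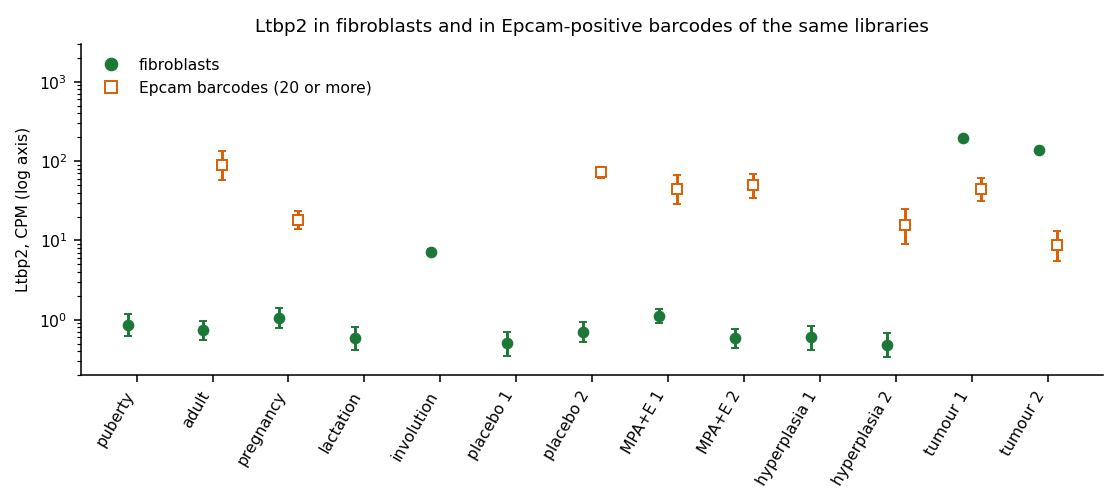
Ltbp2 level in CPM (log axis) in fibroblasts (filled circles, 13 libraries) and in epithelial barcodes with a UMI of Epcam (open squares, the 8 libraries with 20 or more), with exact 95% Poisson intervals. Epithelial barcodes lie above the fibroblasts in the 6 non-tumour libraries that have them and below them in both tumours.

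The partner genes of the elastic fibre were read in the same fits from 5 lists of 52 genes. Under MPA+E, where 4.33% of all genes passed, the 15 assembly partners had 0 genes higher and 3 lower: Adamtsl4, which binds fibrillin (-1.85, SE 0.13, adjusted p = 0.00716), Thsd4, also known as Adamtsl6 (-1.33, SE 0.20, adjusted p = 0.0358), and Efemp1, or fibulin-3 (-0.73, SE 0.11, adjusted p = 0.0361). Of the 5 crosslinking enzymes 1 was higher, Lox (0.64, SE 0.10, adjusted p = 0.0347), which thus moved in the same direction as Eln. Of the 14 latent TGF-beta ligands and activators 1 was higher, the integrin subunit Itgb3 (0.85, SE 0.08, adjusted p = 0.0121), and of the 9 TGF-beta response genes 1 was lower, Tgfbi (-2.74, SE 0.20, adjusted p = 0.00745). None of the 6 tested elastin degrading enzymes passed. A single gene is 7.14% of the latent TGF-beta list and 11.1% of the response list, and the 3 assembly partners are 20% of theirs. The median log2 fold change was -0.27 for the assembly partners and 0.01 for all genes.

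In hyperplasia against normal, where 14.0% of all genes passed, assembly partners passed in 1 case upwards (Fbln7, 1.37, SE 0.18, adjusted p = 0.0125) and in 4 downwards, among them Adamtsl2 (-2.94, SE 0.46, adjusted p = 0.0199) and Mfap4 (-1.38, SE 0.32, adjusted p = 0.0400). The crosslinking enzymes split, with 1 higher and 1 lower of 5. The response genes had 3 higher and 2 lower of 9. The 2 lower ones, Acta2 and Tagln, mark contractile cells and stood in hyperplasia at 0.761 and 2.07 CPM (Acta2) and at 3.17 and 3.44 CPM (Tagln), against 45.7 and 17.8 CPM and 30.2 and 16.0 CPM in the normal libraries. The latent TGF-beta list had 0 higher and 1 lower, and the degrading enzymes 1 higher and 0 lower. The shares called were 33.3% (assembly), 40% (crosslinking), 55.6% (response), 16.7% (degrading) and 7.14% (latent TGF-beta), the last 2 within 1 gene of the share of all genes.

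In tumours against hyperplasia, where 29.3% of all genes passed, the latent TGF-beta list had 7 higher and 1 lower of 14, the response genes 6 higher and 1 lower of 9, the crosslinking enzymes 3 higher of 5, the degrading enzymes 2 higher of 6, and the assembly partners 4 higher and 1 lower of 15. The shares called were 57.1%, 77.8%, 60%, 33.3% and 33.3% in the same order, those of the degrading and assembly lists close to the share of all genes. The strongest were Acta2 (8.25, SE 0.98, adjusted p = 0.00600), Tagln (7.74, SE 0.57, adjusted p = 0.00208) and Mmp9, an elastin degrading enzyme (4.98, SE 0.72, adjusted p = 0.00885). Ccn2, a classic TGF-beta target, also rose (3.17, SE 0.23, adjusted p = 0.00208), while Tgfbi, named for its induction by TGF-beta, fell (-3.06, SE 0.32, adjusted p = 0.00467), as did Vtn, or vitronectin (-3.26, SE 0.24, adjusted p = 0.00208). The medians were 0.82 (latent TGF-beta list), 1.62 (response genes), 0.96 (crosslinking), 0.29 (degrading) and -0.35 (assembly), and -0.01 for all genes, so the assembly list had a median below 0 although more of its called genes were higher.

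In tumours against normal, where 22.8% of all genes passed, the same lists had 7 higher and 2 lower (latent TGF-beta), 6 higher and 1 lower (response), 2 higher (crosslinking), 2 higher (degrading), and 4 higher and 3 lower (assembly). The shares called were 64.3%, 77.8%, 40%, 33.3% and 46.7%, those of the crosslinking and degrading lists within 1 gene of the share of all genes. Vtn (-4.29, SE 0.24, adjusted p = 0.000686) and Adamtsl2 (-3.16, SE 0.44, adjusted p = 0.00631) were the furthest below. Ccn2 (5.29, SE 0.23, adjusted p = 0.000434) and Mmp9 (5.94, SE 0.85, adjusted p = 0.00689) were the furthest above, Mmp9 at a low level of 5.05 and 10.8 CPM in tumours.

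For the 4 genes with the widest range over the 13 libraries, the most similar genes were read among 5625 genes with a mean of at least 20 CPM, by Pearson's r of log2 levels over 13 libraries, as a description. The libraries fall into separate groups, and single groups can set these values. They were Bpgm (r = 0.98) and Nek6 (r = 0.98) for Ltbp2, Mrc2 (0.96) and Pdia5 (0.93) for Fbn2, Smim1 (0.91) and Sil1 (0.91) for Eln, and Gsn (0.94) and Taok3 (0.94) for Ltbp4.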

How the data were processed

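Fibroblast RNA was measured by 10x 3′ single-cell sequencing in 13 mouse libraries of 9 groups, grouped by their labels. The authors deposited filtered matrices of UMI counts, made with Cell Ranger 6.1.2 on mm10 per the submitters' processing notes. Whether intronic reads were counted is not given in the sources used here. The genes, lists and comparisons were chosen with earlier results of these data known.

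Fibroblasts were taken from barcodes holding 500 to 7500 genes and no more than 10% of UMIs from mitochondrial genes, and chosen by the marker rule above. Doublets called by Scrublet were kept and removed as an alternative. Counts were summed per library and scaled to CPM. MPA+E was tested against placebo with edgeR 4.0.16 (quasi-likelihood), and the Wnt1 libraries with limma 3.58.1 (voom), both with TMM scaling, filterByExpr and Benjamini-Hochberg adjustment over all genes tested. DESeq2 1.42.0 was an alternative. States came from clusters integrated in Seurat 5.3.0 (R 4.3.3), with Leiden clusters in scanpy 1.11.5 as an alternative, and a state was fitted where each library held at least 50 cells of it. For shares of cells, each cell was thinned to 2000 UMIs. The scripts were tested on simulated data.

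Per the labels, a hyperplasia library shares its mouse with the tumour library that carries its number, and their deviations from the group means correlated at 0.135. For placebo and MPA+E the labels use the numbers only to name libraries. All 10 genes were named. Of the partner lists, at most the 6 called genes with the largest fold change and 3 others were named per comparison. For the 4 genes with the widest range, the 2 genes with the most similar levels were named.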

Additional observations from a re-analysis of the deposited data

Results flagged for a closer look

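The log2 effect of MPA+E differed between progenitor-like cells and the mean of the other 4 states for 6 genes, by edgeR's quasi-likelihood test of the difference itself. The difference was 1.67 for Fbln1, -2.56 for Fbn2, -0.75 for Ltbp4, 0.54 for Fbln2, -0.50 for Fbn1 and -0.28 for Fbln5. Fbn1 was lost without the library block (adjusted p = 0.203), and Fbln5 was lost in each of the 6 other fits. Fbln1 had no lower level in progenitor-like cells under MPA+E while it fell in the other 4 states. In the fits printed above Fbn2 and Ltbp4 passed in progenitor-like cells and in none of the other 4. The level of Ltbp4 was also lower without overlap in ECM remodelling-like, lobular-like and adipogenesis-regulatory-like cells. That of Fbn2 was also lower without overlap in adipogenesis-regulatory-like cells.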

How the results depend on the processing

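Of single-gene values under settings other than leaving out a library, 644 kept direction and side of the threshold, 33 newly passed it, 8 no longer passed, 19 stage ratios or counts of libraries, which have no test, moved, and 8 values reversed. With 1 library left out, 361 kept direction and side, 14 newly passed, 42 no longer passed and 31 reversed. None of the 8 reversed values passed the threshold, and the cause was not tested.

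DESeq2 called 1358 genes and 5 of the 10 for MPA+E, 4017 genes and 2 of the 10 for hyperplasia against normal, 723 genes in preadipocyte-like and 287 in ECM remodelling-like cells, and 1 of the 10 in lobular-like cells. For MPA+E limma-voom called 3 of the 10, and a fibroblast score of at least 100 gave 2. With no filter on low counts 1457 (preadipocyte-like), 770 (ECM remodelling-like, with 4 of the 10), 723 (lobular-like) and 1045 genes (adipogenesis-regulatory-like) passed. With equal numbers of cells, 185 per state and library, 729 (progenitor-like), 156 (preadipocyte-like, with 1 of the 10), 72 (ECM remodelling-like) and 170 genes (adipogenesis-regulatory-like) passed, and the log2 fold change was -0.043 for Fbln1 in progenitor-like cells, -0.031 for Fbn1 and -0.72 for Fbn2 in preadipocyte-like cells, 0.12 for Fbn2 in ECM remodelling-like cells and -0.025 for Fbn1 in adipogenesis-regulatory-like cells. Leiden clusters gave 519 genes and 3 of the 10 in progenitor-like cells, -0.043 for Fbln1 there and 0.025 for Fbn2 in ECM remodelling-like cells. Without the library block 438 genes passed for the difference between states.

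By the labels placebo and MPA+E libraries share only a number, while the deviations of same-numbered ones from their group means correlated at 0.447. The source of this correlation was not tested. With that number as a replicate block 2451 genes and 6 of the 10 passed over all fibroblasts, 3097 genes in progenitor-like cells, 2232 and 5 of the 10 in preadipocyte-like, 1658 and 6 in ECM remodelling-like, 981 and 5 in lobular-like and 1962 and 6 in adipogenesis-regulatory-like cells. Fbn2 in ECM remodelling-like cells was then at 0.011. The block by mouse changed no call of the 10 genes in the Wnt1 contrasts.

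Leaving out 1 library at a time assumes that a lone library varies like the other groups. For MPA+E it gave 22 (without placebo 1) to 900 genes (without MPA+E 1) and 0 to 2 of the 10, with -0.33 to 0.031 for Fbn2, -0.014 to 0.85 for Ltbp2 and -0.14 to 0.0087 for Ltbp3. For hyperplasia against normal it gave 1 (without hyperplasia 2) to 4810 genes and 0 to 3 of the 10, with -1.13 to 0.28 for Fbn2, -0.043 to 0.26 for Ltbp3, -0.51 to 0.047 for Ltbp4 and -0.36 to 0.10 for Fbln2. For tumour against hyperplasia it gave 242 (without hyperplasia 1) to 7120 genes and 1 to 5 of the 10, with -0.17 to 0.25 for Ltbp3. For tumour against normal it gave 910 (without adult) to 5479 genes and 3 to 6 of the 10, with -1.36 to 0.0044 for Eln, -0.20 to 0.50 for Fbn1, -0.062 to 0.35 for Ltbp3 and -0.24 to 0.13 for Fbln5.

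Within states it gave 237 to 2295 genes and 1 to 5 of the 10 (progenitor-like, Ltbp2 -0.73 to 1.27), 51 to 577 and 1 to 2 (preadipocyte-like, Fbn1 -0.054 to 0.25, Fbn2 -0.44 to 0.70, Ltbp4 -0.42 to 0.057), 12 to 550 and 0 to 3 (ECM remodelling-like, Fbn2 -0.24 to 0.27), 138 to 518 and 1 to 2 (lobular-like, Fbn1 -0.053 to 0.30, Fbn2 -0.63 to 0.13) and 192 to 481 and 1 to 3 (adipogenesis-regulatory-like, Eln -0.11 to 0.19, Fbn1 -0.10 to 0.22). For the difference between states it gave 581 to 1288 genes, with -2.14 to 1.43 for Ltbp2.

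Of the stage ratios, lactation over pregnancy for Fbln2 was 1.93 under TMM scaling and 1.95 as a mean over cells, below 2-fold. Ltbp2 outside tumours and involution rests on 34 to 98 UMIs per library, which limits its precision there.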

Other observations

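The share of Ltbp2 UMIs that fell in single cells with 3 or more was high in tumours, at 92.6% and 91.1%, with up to 116 UMIs in 1 cell. In tumours 20034 and 12229 UMIs lay in 3114 and 1942 cells. This share rises with the level of the gene, so it is no observation apart from that level. In hyperplasia it was 58.8% and 37.1% of only 34 and 35 UMIs, which 17 and 21 cells held, with up to 8 and 13 in 1 cell. In involution it was 32.7%, with up to 14, and in the other 8 libraries 5.66% to 45.7% of 35 to 98 UMIs.

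Ltbp3 was the only one of the 10 genes whose range over the 8 libraries with epithelial barcodes (63.0 to 125 CPM there) covered its whole range over fibroblasts (73.3 to 111 CPM, 13 libraries).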
